A study of Mus musculus with 6 samples.

Results

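The genes described here are members of 6 families of membrane carriers, Slc1, Slc6, Slc7, Slc36, Slc38 and Slc43, most of which move amino acids or molecules derived from them. They were taken by symbol from a table of 23420 genes. The pattern matched 60 rows, of which Slc7a1, Slc7a5, Slc38a4 and Slc38a5 were set aside, leaving 56 members. One of them, Slc7a6os, shares only its name with the families: it is a neighbour of Slc7a6 on chromosome 8 and is not known as a carrier.

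The libraries came from mouse embryos at embryonic day 12.5 that carried the Csf1r-iCre transgene and the RosatdTomato reporter. Csf1r encodes a growth factor receptor of myeloid cells. Its promoter drives the Cre recombinase, and recombination switches on the red protein tdTomato for good, so that the protein marks cells with present or past Cre activity, whichever cell type they now are. From whole embryos, cells with PECAM1 but without KIT, CD11b or CD45 were taken as endothelial and split by tdTomato, giving 3 tdTom+ and 3 tdTom- libraries. Both fractions carried the same transgene and reporter, and the study set them side by side to ask how endothelial cells of a Csf1r-iCre lineage differ from the others.

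The libraries held 8919887 to 11767956 counts. Endothelial genes were abundant in both fractions: the summed level of 11 endothelial markers, Pecam1 and Cdh5 among them, was 7744 to 8269 CPM (counts scaled to a depth of 1000000 with edgeR's TMM factors) in tdTom+ and 7799 to 8079 CPM in tdTom- libraries, and 0 of the 11 passed in edgeR or DESeq2 (1 had an unadjusted p under 0.05). Of 11 brain endothelial markers 5 were lower in tdTom+ cells (7 with DESeq2, and 10 had an unadjusted p under 0.05). Of 9 tested liver sinusoidal markers 8 were higher. Both libraries numbered 3 had Xist, a transcript of female cells, at 1224 and 571 counts against at most 8 in the others. The labels do not say that a replicate number names an embryo, so p-values measure the spread between these libraries. In sorted bulk samples, fewer cells of a type and less RNA per cell cannot be told apart.

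Cells take up amino acids through carriers that differ in what drives them. Slc1 and Slc38 proteins use the sodium gradient, Slc36 proteins use protons, Slc43 proteins need neither, and many Slc7 proteins exchange one amino acid for another and reach the cell surface only when bound to a heavy chain, Slc3a2 or Slc3a1. Slc6 proteins carry neurotransmitters, taurine and creatine as well as amino acids. The endothelium of the brain is known for a dense set of these carriers, which supply amino acids to the brain and return glutamine and glutamate to the blood.

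Of the 56 members, 34 had enough counts to be tested and 22 did not, 11 of these with no count in any library, which allows up to 0.0468 CPM (3 counts over the 6 libraries, counting error only). Among the 34, the serotonin carrier gene Slc6a4 was higher in tdTom+ cells, and the glutamine carrier gene Slc38a3 and the serine and alanine carrier gene Slc1a4 were lower (quasi-likelihood F-test of edgeR, with p adjusted over 13142 genes by Benjamini-Hochberg and a threshold of 0.05). The other 31 did not pass. The 3 calls were 8.82% of the tested members, against 1.58% of all tested genes. By direction, 1 was higher, where 0.769% of all tested genes were higher, and 2 were lower, where 0.814% were lower. The groups did not overlap in 13 of the 34, or 38.2%, against 17.2% of all tested genes: 6 were higher in every tdTom+ library (7.88% of all tested genes were) and 7 lower (9.35%). A gene counted only in one fraction passes the count minimum through that fraction alone, as Slc6a4 did, so these shares describe the genes that could be tested and not the whole set.

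The median log2 fold change (tdTom+ over tdTom-) of the 34 was 0.086, beside -0.00026 over all tested genes. Among the 17 with a mean of at least 10 CPM, where SEs ran from 0.066 to 0.31, the fold changes ran from -0.87 to 0.34 with a median of -0.026, beside 0.0098 over the 9654 genes at that level. The other 17 lay under 10 CPM, with SEs of 0.352 to 1.37, so that small differences in them were not detectable in these libraries. The summed level of all members was 2197, 2171 and 2102 CPM in tdTom+ and 2210, 2277 and 2174 CPM in tdTom- libraries 1 to 3, means of 2156 ± 49.3 and 2221 ± 52.2 CPM (SD, n = 3). The groups overlapped, and the difference did not pass (exact permutation test, two-sided p = 0.2, where 0.1 is the smallest 3 against 3 can give).

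**Figure D1:**
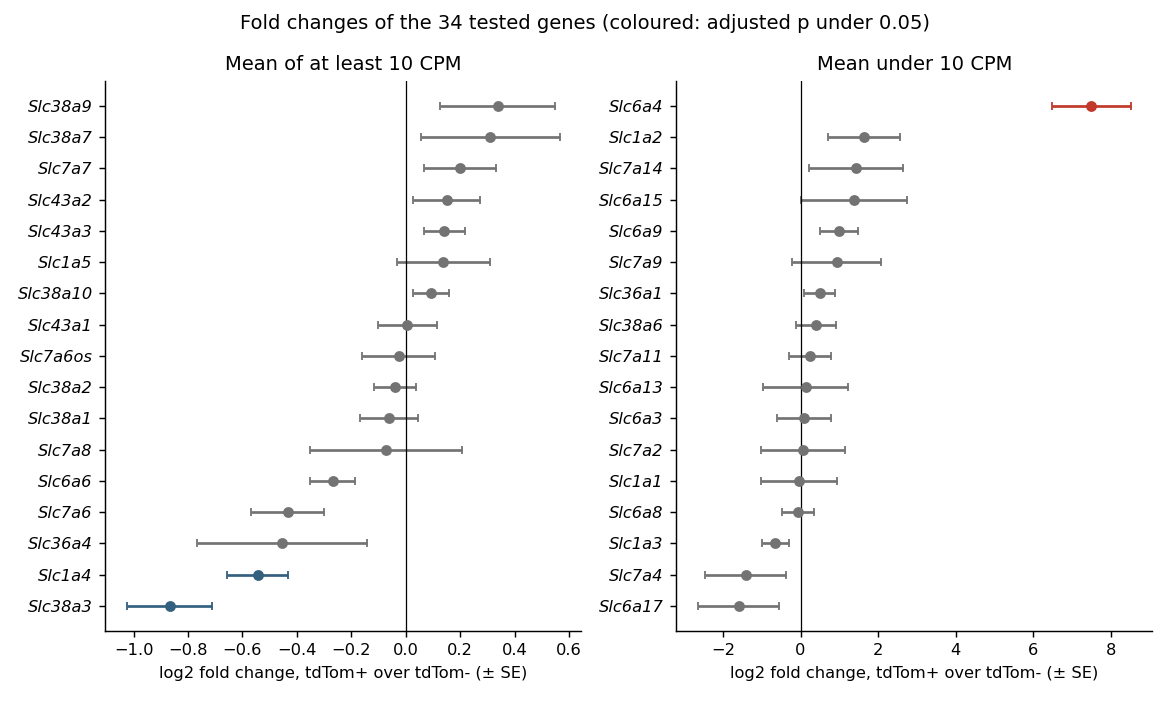
Log2 fold change, tdTom+ over tdTom-, of the 34 tested genes (points) with the SE of the fit (bars), split at a mean of 10 CPM; the axes of the panels differ. Slc6a4 (red) at 7.50 passed as higher, Slc38a3 and Slc1a4 (blue) at -0.87 and -0.54 passed as lower, and the grey genes did not pass.

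The carriers of monoamines, GABA, glycine, taurine and creatine held the member with the largest fitted change, Slc6a4. The other 5 of their 6 tested genes did not pass, and the median log2 fold change of the 6 was 0.10. Slc6a4 encodes the plasma membrane serotonin transporter, through which platelets and serotonin neurons take up serotonin (chromosome 11, 76998603 to 77032340, mm10). It had 112, 124 and 31 counts in tdTom+ and 0, 0 and 1 count in tdTom- libraries, or 9.82, 11.4 and 2.90 CPM against 0, 0 and 0.112 CPM. All tdTom+ libraries lay above all tdTom- libraries, and tdTom+ replicate 3 was the lowest of its group. The fitted log2 fold change was 7.50 ± 1.02 (SE, adjusted p = 0.00522 by edgeR). With 1 count in the lower group that value depends on the fit: the ratio of summed counts per depth was 251, with an exact 95% interval of 44.7 to 9955 that covers counting error only. With limma-voom the call ended (adjusted p = 0.0961), and a minimum count of 50 left Slc6a4 untested.

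The 250 bases before the start of Slc6a4 are shown with those of Slc1a4, the other called gene with an entry in the RefSeq promoter table (GRCm38.p6, the mm10 build). The Slc6a4 window is chr11:76998347-76998596 on the plus strand, and the Slc1a4 window is chr11:20332714-20332963 on the minus strand. Capitals mark matches to a GATA factor motif, spelled GATA with A or T before it and A or G after it, on either strand.
Slc6a4: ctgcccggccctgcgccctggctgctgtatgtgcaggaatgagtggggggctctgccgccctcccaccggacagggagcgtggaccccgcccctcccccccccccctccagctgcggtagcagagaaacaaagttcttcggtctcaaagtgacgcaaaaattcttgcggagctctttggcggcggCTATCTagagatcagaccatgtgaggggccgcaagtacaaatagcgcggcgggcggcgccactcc
Slc1a4: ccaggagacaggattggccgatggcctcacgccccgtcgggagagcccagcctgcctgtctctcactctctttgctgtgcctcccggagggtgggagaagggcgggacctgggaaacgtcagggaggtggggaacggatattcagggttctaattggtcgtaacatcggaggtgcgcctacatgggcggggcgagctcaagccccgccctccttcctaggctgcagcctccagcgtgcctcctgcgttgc
The Slc6a4 window held 1 GATA match, on the minus strand 65 bases before the start, and the Slc1a4 window held none. Such a match is common, being present in 26.5% of 32851 promoter windows of that length. Both windows had a GC content of 64.8%, above the median of 52.4%. The starts are those of RefSeq. The bases just after the start were found whole in 0 GENCODE M21 transcripts for Slc6a4 and in 1 for Slc1a4. The Slc6a4 window ends at 76998596, shortly before the GENCODE start of the gene at 76998603.

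Other genes place the Slc6a4 difference beside blood and neural transcripts. Of 10 megakaryocyte and platelet markers 6 were higher in tdTom+ cells and 0 lower, while DESeq2 called 9 higher. The summed level of the list was 242 to 452 CPM in tdTom+ and 29.8 to 44.1 CPM in tdTom- libraries, and none of the 10 was at 0 in either group. Of 9 tested neural markers 0 passed, 3 had an unadjusted p under 0.05, and DESeq2 called Stmn2 and Map2 lower. The neural list summed to 262 to 286 CPM against 298 to 325 CPM, most of it from Nes at means of 208 and 215 CPM. Genes of serotonin handling were looked up after the Slc6a4 values were seen. Tph2, the neuronal enzyme of serotonin synthesis, had no count in any library, and Tph1, the enzyme of other tissues, had 1 count in all. Fev, Slc18a1, Maob and Maoa, also looked up, were counted in every library and did not pass. Fev averaged 4.26 CPM in tdTom+ against 5.72 CPM in tdTom- libraries, with overlapping groups. Slc18a1 averaged 13.3 against 11.97 CPM and Maob 2.23 against 4.62 CPM, also with overlap. Maoa averaged 72.6 against 94.7 CPM, without overlap (adjusted p = 0.205 by edgeR). Slc18a2, which encodes the carrier that loads serotonin into platelet granules and synaptic vesicles, averaged 21.1 ± 3.93 CPM in tdTom+ libraries against 26.8 ± 2.72 CPM in the others (SD, n = 3) and did not pass, although its groups did not overlap. The part of blood cell transcripts in the Slc6a4 difference was not tested.

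Slc6a6, which encodes the taurine transporter, was the most abundant member of this group. It had 226, 262 and 238 CPM in tdTom+ and 283, 311 and 281 CPM in tdTom- libraries. Every tdTom- library was above every tdTom+ library, but the log2 fold change, -0.27 ± 0.08 (SE), missed the threshold (adjusted p = 0.192 by edgeR). Slc6a9, the glycine transporter gene GlyT1, known in glia and in developing red cells, had 5.61, 7.32 and 5.33 CPM in tdTom+ and 4.66, 2.37 and 2.13 CPM in tdTom- libraries, and with a log2 fold change of 0.99 ± 0.48 (SE) it missed the threshold (adjusted p = 0.513 by edgeR). The groups did not overlap, though tdTom- replicate 1 lay close to the tdTom+ libraries. Exons of Ccdc24 on the opposite strand cover 27.8% of the exonic length of Slc6a9. The kit does not mark strand, so reads within that shared stretch cannot be assigned to either gene by strand. Of 9 erythroid markers 2 were higher and 0 lower in tdTom+ cells, with summed levels of 215 to 296 CPM against 145 to 251 CPM. DESeq2 called 4 of them higher, and 5 had an unadjusted p under 0.05. The largest part of these sums was Hbb-y, at means of 134 and 130 CPM with overlapping groups. The called markers, Gata1 and Klf1, averaged 15.6 against 0.720 CPM and 10.3 against 2.09 CPM, and the other 7 did not pass.

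Slc6a8, the X-linked creatine transporter gene, had 4.30, 5.49 and 5.70 CPM in tdTom+ and 4.37, 4.40 and 7.50 CPM in tdTom- libraries. The library numbered 3 was the highest in each group, though in tdTom+ it had 61 counts beside 60 in replicate 2, and a dependence on sex was not tested. The groups overlapped, with a log2 fold change of -0.07 ± 0.42 (SE). The dopamine carrier gene Slc6a3 and the GABA carrier gene Slc6a13 were tested at means of 1.81 and 1.01 CPM and did not pass. Slc6a11, another GABA carrier gene, reached at most 23 counts in a library and did not meet the count minimum. The noradrenaline carrier gene Slc6a2 had 5 counts, all in tdTom- replicate 1, and Slc6a5 and Slc6a12 had none.

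The amino acid carriers of the Slc6 family were close to absent. Slc6a15 and Slc6a17, neuronal carriers of branched-chain and other neutral amino acids, were the 2 of 8 that could be tested. Slc6a15 had 3.16, 0 and 2.34 CPM in tdTom+ and 1.65, 0.423 and 0 CPM in tdTom- libraries, with each group spread from 0 upward. Slc6a17 had 0.526, 0 and 1.31 CPM in tdTom+ against 1.84, 1.86 and 1.90 CPM in tdTom- libraries, and it missed the threshold, at -1.60 ± 1.05 (log2 fold change, SE), although the groups did not overlap (adjusted p = 0.673 by edgeR). Slc6a14, a broad carrier of neutral and basic amino acids, had 10 counts in tdTom- replicate 1 and 0 in the other 5 libraries. Slc6a7, Slc6a18 and Slc6a19, carriers of brain and kidney, had none. Slc6a20a and Slc6a20b, which are closely related, had at most 14 counts in a library. Whether their reads could be told apart was not tested.

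Slc38 carriers of small neutral amino acids held the most abundant and one of the called members. Slc38a3 encodes SNAT3, a sodium-coupled carrier of glutamine, histidine and asparagine of liver, kidney and brain that is also known in brain capillaries (chromosome 9, 107650634 to 107669530). It had 56.6, 46.8 and 37.4 CPM in tdTom+ and 85.1, 80.3 and 91.7 CPM in tdTom- libraries. The groups were well apart, and all tdTom+ libraries lay below the lowest tdTom- library. The log2 fold change of -0.87 ± 0.16 (SE) is a change of -45.2% in level (adjusted p = 0.0226 by edgeR). Leaving out tdTom+ replicate 2 ended the call, with an adjusted p of 0.0559, and so did leaving out tdTom- replicate 1, 2 or 3, at 0.11, 0.0705 and 0.123, while the log2 fold change stayed between -1.03 and -0.73 whichever library was left out.

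Slc38a2, the SNAT2 carrier gene that many cells use for alanine and glutamine, had the highest level of all members, at 527, 524 and 502 CPM in tdTom+ and 526, 585 and 485 CPM in tdTom- libraries. The groups overlapped, with a log2 fold change of -0.04 ± 0.08 (SE, adjusted p = 0.922 by edgeR). Relative to Slc38a2 of the same library, Slc38a3 stood at 0.107, 0.0892 and 0.0745 in tdTom+ and 0.162, 0.137 and 0.189 in tdTom- libraries. Slc38a3 had been called lower in these same libraries and Slc38a2 was level, so this ratio restates that call and is no separate test. Slc38a1, the SNAT1 gene, lies 44.5 kb from Slc38a2 on chromosome 15 and had 101, 109 and 91.1 CPM against 104, 110 and 100 CPM, with overlapping groups.

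Slc38a10, a carrier of glutamine and related amino acids found on inner membranes, had 370, 353 and 348 CPM in tdTom+ and 331, 333 and 341 CPM in tdTom- libraries. Its groups did not overlap, yet the log2 fold change was only 0.09 ± 0.07 (SE, adjusted p = 0.707 by edgeR). Slc38a9, the arginine sensor of the lysosome that signals to the growth regulator mTORC1, and Slc38a7, a lysosomal glutamine exporter, had log2 fold changes of 0.34 ± 0.21 and 0.31 ± 0.25 (SE) and did not pass. Slc38a6 was tested at a mean of 6.22 CPM and did not pass, and Slc38a8 and Slc38a11 had no count in any library.

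Among the Slc1 genes, Slc1a4 encodes ASCT1, a sodium-dependent exchanger of alanine, serine, cysteine and threonine that supplies serine to the brain (chromosome 11, 20302180 to 20332713). It had 67.5, 71.5 and 68.1 CPM in tdTom+ and 92.0, 100 and 110 CPM in tdTom- libraries. The tdTom+ libraries lay within a narrow range, below every tdTom- library. The log2 fold change was -0.54 ± 0.11 (SE), a change of -31.4% (adjusted p = 0.0401 by edgeR). Leaving out any single library of the 6 ended the call (adjusted p from 0.0677 to 0.183), with log2 fold changes between -0.60 and -0.48.

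The close relative Slc1a5, which encodes the glutamine exchanger ASCT2, had 122, 115 and 113 CPM in tdTom+ and 142, 84.7 and 92.2 CPM in tdTom- libraries. It did not pass, with tdTom- replicate 1 the highest and the other tdTom- libraries the lowest, and a log2 fold change of 0.14 ± 0.17 (SE, adjusted p = 0.868 by edgeR). The ratio of Slc1a4 to Slc1a5 was 0.551, 0.621 and 0.603 in tdTom+ and 0.650, 1.18 and 1.19 in tdTom- libraries. As Slc1a4 had been called lower in these same libraries, the ratio is no separate test of it. Slc1a3, the glutamate transporter gene GLAST of glia, had 4.82, 6.50 and 4.86 CPM in tdTom+ and 10.8, 7.03 and 7.61 CPM in tdTom- libraries, and groups that did not overlap, yet with a log2 fold change of -0.65 ± 0.35 (SE) it missed the threshold (adjusted p = 0.577 by edgeR). Slc1a1 and Slc1a2, glutamate carrier genes of neurons and glia, were tested, at no more than 4.21 CPM in a library, and did not pass. Slc1a6 had at most 10 counts in a library, and Slc1a7 had 0 in tdTom+ libraries and 1, 3 and 2 in tdTom- libraries.

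**Figure D2:**
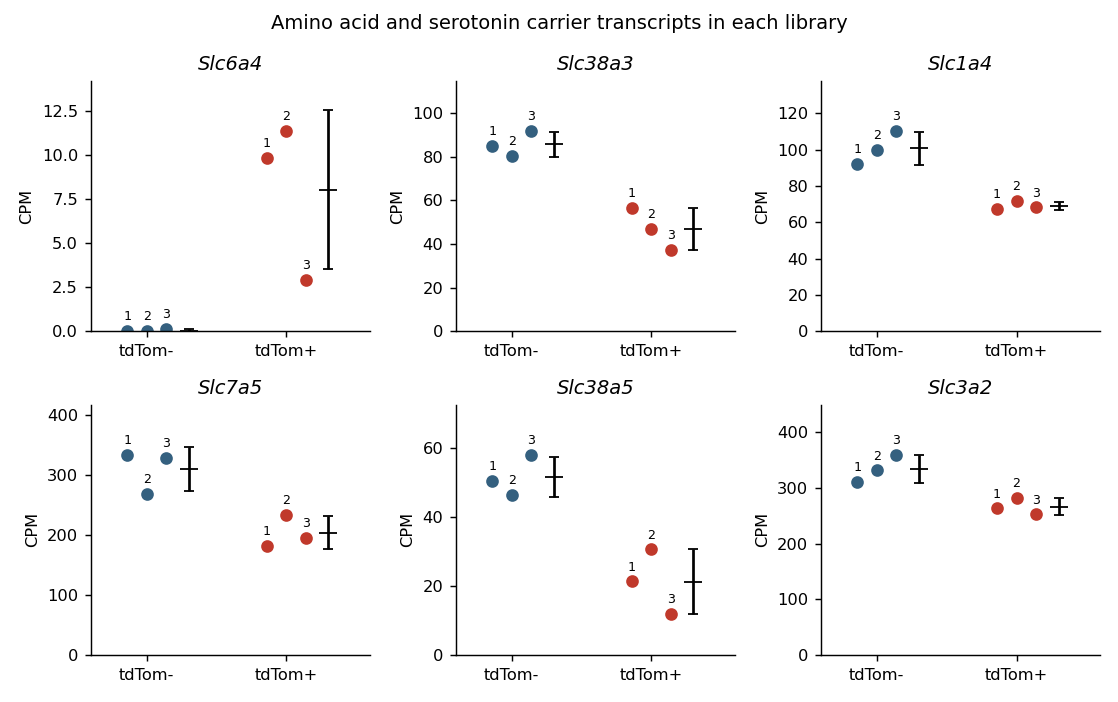
CPM in each library (points, numbered by replicate) with the mean and SD of the group beside them (bars, n = 3), for the called genes Slc6a4, Slc38a3 and Slc1a4 and for the related genes Slc7a5, Slc38a5 and Slc3a2. Slc6a4 was between 2.90 and 11.4 CPM in tdTom+ and at most 0.112 CPM in tdTom- libraries, and in the other 5 panels all tdTom+ libraries lie below all tdTom- libraries.

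Of the 4 carriers of these families set aside at the start, 1 was lower in tdTom+ cells and 3 did not pass. Slc7a5, the large neutral amino acid transporter gene LAT1, had 181, 234 and 196 CPM in tdTom+ and 334, 268 and 328 CPM in tdTom- libraries and was lower (log2 fold change -0.61 ± 0.11, SE, adjusted p = 0.0267 by edgeR). That call ended without tdTom+ replicate 1 (0.0908) or 3 (0.0675), without tdTom- replicate 1 (0.15) or 3 (0.135), and with the libraries numbered 1 and 2 only (0.254). Slc38a5, the SNAT5 glutamine carrier gene, had 21.3, 30.6 and 11.8 CPM against 50.3, 46.3 and 58.0 CPM and missed the threshold (log2 fold change -1.28 ± 0.28, SE, adjusted p = 0.0556 by edgeR). Slc38a5 did pass as lower with DESeq2 (adjusted p = 0.000416), limma-voom (0.0322), the replicate block (0.0224), no count filter (0.0328) and the stricter filter (0.0395), and without tdTom+ replicate 2 (0.0172) or 3 (0.0397). Slc7a1 and Slc38a4 had log2 fold changes of -0.36 ± 0.11 and -0.14 ± 0.16 (SE) and did not pass. Relative to Slc7a5 of the same library, Slc38a3 stood at 0.312, 0.200 and 0.191 in tdTom+ and 0.255, 0.300 and 0.279 in tdTom- libraries, with overlapping groups (exact permutation test, two-sided p = 0.4). Both genes had been called lower in these same libraries, so this ratio too is no separate test of either. Of 11 markers in the brain endothelial list 5 were lower, 0 higher and 6 did not pass. An unadjusted p under 0.05 was reached by 10 of the 11, and DESeq2 called 7 lower. Summed levels of this list were 1213 to 1418 CPM in tdTom+ and 1793 to 1878 CPM in tdTom- libraries, with no marker at 0. Slc38a3 is also a liver gene, and of 8 tested hepatoblast markers 0 passed in edgeR or DESeq2 and 2 had an unadjusted p under 0.05, at summed levels of 161 to 174 CPM against 210 to 456 CPM. Most of the tdTom+ sums came from Trf, at a mean of 120 CPM. The highest tdTom- sum was that of replicate 3, which had Ttr at 82.5 and Afp at 54.4 CPM. In tdTom- replicates 1 and 2, Ttr was at 13.5 and 3.13 CPM and Afp at 3.49 and 6.60 CPM. Of 7 tested germ cell markers 5 were lower in tdTom+ cells, Dazl, Ddx4, Dppa3, Dppa5a and Pou5f1, and 0 higher. DESeq2 also called Kit lower. The germ cell list summed to 83.6 to 95.9 CPM in tdTom+ and 182 to 243 CPM in tdTom- libraries, most of it in tdTom+ cells from Kit at a mean of 86.7 CPM, and Dazl, Dppa3, Pou5f1 and Mael had no count in any tdTom+ library. The part of brain vessels, liver cells or germ cells in the Slc38a3 and Slc1a4 differences was not tested.

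The Slc7 light chains were led by Slc7a6 and Slc7a7, whose proteins y+LAT2 and y+LAT1 exchange basic for neutral amino acids. Slc7a6 had 56.0, 44.0 and 48.7 CPM in tdTom+ and 69.0, 69.9 and 61.9 CPM in tdTom- libraries. The groups did not overlap, but the log2 fold change, -0.43 ± 0.13 (SE), missed the threshold (adjusted p = 0.197 by edgeR). Slc7a7 had 61.2, 56.0 and 61.8 CPM in tdTom+ against 47.5, 58.2 and 50.2 CPM in tdTom- libraries, with overlapping groups and a fold change of the other sign, 0.20 ± 0.13 (SE). Slc7a8, the LAT2 gene, was lower in level, at 10.4, 12.7 and 9.54 CPM against 9.99, 9.90 and 14.4 CPM. Slc3a2, the heavy chain these proteins need, had 264, 283 and 253 CPM in tdTom+ and 311, 332 and 360 CPM in tdTom- libraries and did not pass (log2 fold change -0.33 ± 0.08, SE, adjusted p = 0.0884 by edgeR), though DESeq2 called it lower (adjusted p = 0.00955). The other heavy chain gene, Slc3a1, had at most 9 counts in a library. Slc7a6os, which ends 2.01 kb from Slc7a6, had a log2 fold change of -0.03 ± 0.13 (SE).

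Slc7a11, the cystine and glutamate exchanger gene xCT, was tested at a mean of 3.63 CPM and did not pass, with a log2 fold change of 0.24 ± 0.55 (SE). It is a known target of ATF4, the transcription factor of amino acid starvation, and its promoter is shown because it held the starvation response core TGATGNAA on each strand. The stretch from 90 to 31 bases before the start is chr3:50443644-50443703 on the minus strand (GRCm38.p6), with the matches in capitals.
Slc7a11: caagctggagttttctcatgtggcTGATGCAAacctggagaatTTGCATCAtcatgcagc
This core was present in 3.45% of the 32851 windows of 250 bases and in 3 of the 57 windows of the 39 members with an entry, the other 2 being alternative starts of Slc7a7. Slc7a9, the cystine carrier light chain gene of kidney, ranged from 0.0915 to 5.05 CPM over the tdTom+ libraries and did not pass. Slc7a10 had at most 6 counts in a library, and Slc7a12, Slc7a13 and Slc7a15 had none.

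In the group of cationic amino acid carriers without a heavy chain, Slc7a2, Slc7a3, Slc7a4 and Slc7a14 were scarce and mostly uneven between libraries. Slc7a2, the CAT2 gene of macrophages and liver, had 0, 3.11 and 1.78 CPM in tdTom+ and 1.65, 1.35 and 1.68 CPM in tdTom- libraries. Slc7a14, a lysosomal relative, had 0.175, 6.87 and 1.12 CPM in tdTom+ and 0.097, 0.931 and 2.02 CPM in tdTom- libraries, so that tdTom+ replicate 2 alone held most of its counts, and without that library its log2 fold change went from 1.43 to -0.63. Slc7a4 had 0, 1.01 and 0.841 CPM in tdTom+ and 1.84, 1.35 and 1.79 CPM in tdTom- libraries, without overlap, and did not pass (adjusted p = 0.719 by edgeR). Slc7a3 reached at most 11 counts in a library.

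The Slc36 genes encode proton-coupled carriers of small amino acids, with Slc36a1 and Slc36a4 linked to lysosomes and mTORC1. Slc36a4 had 15.4, 9.25 and 9.44 CPM in tdTom+ and 14.8, 20.7 and 11.2 CPM in tdTom- libraries, with overlapping groups. Slc36a1 had 6.14, 5.58 and 7.01 CPM in tdTom+ and 4.66, 3.30 and 5.37 CPM in tdTom- libraries, without overlap, and it missed the threshold, at 0.49 ± 0.40 (log2 fold change, SE) (adjusted p = 0.754 by edgeR). Their neighbours on chromosome 11, Slc36a2 and Slc36a3, had at most 2 counts in a library and no count.

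All 3 Slc43 genes were well expressed. Slc43a3, which encodes a purine base carrier known in endothelial cells, had 248, 236 and 230 CPM in tdTom+ and 207, 214 and 225 CPM in tdTom- libraries. The tdTom+ libraries were all above the tdTom- libraries, but the log2 fold change, 0.14 ± 0.08 (SE), missed the threshold (adjusted p = 0.57 by edgeR). Slc43a2, the LAT4 gene of branched-chain amino acid and phenylalanine transport, had 98.7, 94.2 and 97.9 CPM against 72.9, 97.4 and 91.6 CPM, and Slc43a1, the LAT3 gene, had 74.2, 78.4 and 84.6 CPM against 77.8, 79.7 and 78.7 CPM, both with overlapping groups. Slc43a1 had the smallest fold change of the 3, 0.01 ± 0.11 (SE).

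Levels of different genes were compared per kilobase of exon, using the union of annotated exons (GENCODE M21, mm10). Slc38a2, Slc38a10 and Slc43a3 headed the order, with means of 59.4, 53.9 and 50.8 CPM per kilobase over the 6 libraries. Their ranges, 54.9 to 66.2, 51.5 to 57.6 and 46.5 to 55.5, overlapped from each to the next. Slc6a6 followed at 31.5 (26.7 to 36.8) and Slc1a5 at 26.7 (20.3 to 33.9), which also overlapped, while Slc6a6 lay below every value of Slc43a3. Slc1a4 was the sixth in the order at 21.6 and Slc38a3 the tenth at 12.6, beside Slc7a6 at 12.7. Slc6a4 came 20th at 0.89, a mean over libraries from 0 to 2.51. The 4 members with the most counts made up 62.3% of the summed CPM of all members, and the 10 with the most 86.8%.

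**Figure D3:**
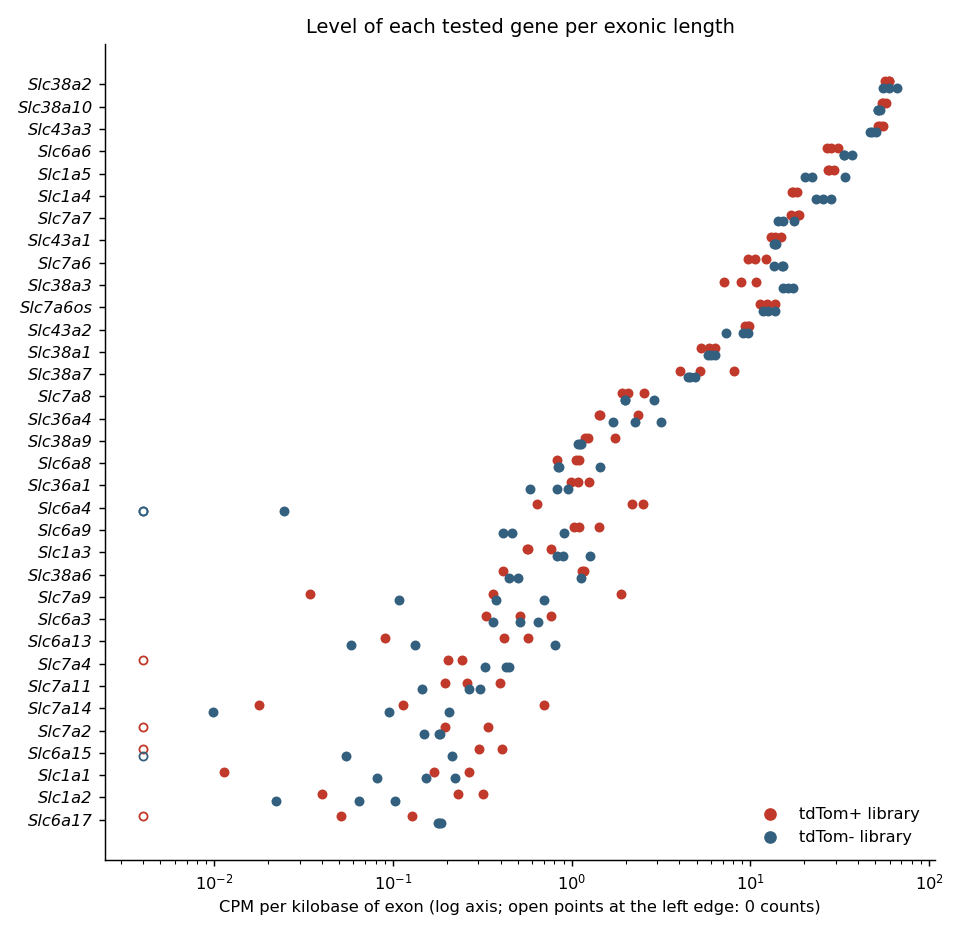
CPM per kilobase of exon (log axis) of the 34 tested genes in each tdTom+ (red) and tdTom- (blue) library, ordered by the mean over 6 libraries. Levels run from 59.4 for Slc38a2 to 0.121 for Slc6a17, and open points at the left edge are libraries with 0 counts.

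Genes around these carriers were read from lists of pathways. Of 22 tested genes of the amino acid starvation response, among them Atf4 and Asns, 0 passed in edgeR or DESeq2 and 2 had an unadjusted p under 0.05, with a median log2 fold change of 0.005. Stc2, a secreted glycoprotein gene of that response, had the smallest p of them, with a log2 fold change of 1.30 ± 0.40 (SE, adjusted p = 0.189 by edgeR). Of 30 tested genes of amino acid sensing at the lysosome and mTORC1 0 passed in either tool and 1 had an unadjusted p under 0.05, with a median of 0.04. None of 12 genes of glutamine and glutamate metabolism, 9 of serine and glycine metabolism, 11 of cysteine and glutathione metabolism, 7 of branched-chain amino acid breakdown, 5 of arginine and nitric oxide metabolism and 13 amino acid carriers of other families passed in edgeR. In the same order, 1, 1, 2, 0, 2 and 3 of these genes had an unadjusted p under 0.05. Genes named from these lists were chosen after their values were seen. Gldc, a glycine cleavage enzyme gene, averaged 3.44 CPM in tdTom+ libraries against 14.2 CPM in the others, and at -2.03 ± 0.67 (log2 fold change, SE) it missed the threshold here (adjusted p = 0.239 by edgeR), while DESeq2 called it lower. Gclc, whose product makes the first step of glutathione synthesis, had -0.42 ± 0.15 (SE), and Nos3, the endothelial nitric oxide synthase gene, -0.26 ± 0.09 (SE), neither of which passed. These lists overlap: Sesn2, Gpt2, Asns and others stand in more than one.

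The 3 calls were followed over 14 other ways of treating the counts. The authors' deposited table lists the same 3 members at an adjusted p under 0.05, Slc6a4 as higher and Slc38a3 and Slc1a4 as lower, and no other member. DESeq2 on the counts called 1 member higher and 2 lower, and these 3 passed in it. For Slc6a4 this fit and the deposited values gave the same log2 fold change, 7.85, and the same adjusted p, 1.01e-06 (DESeq2). The deposited calls come from the same counts and are no separate result. With the 4 libraries numbered 1 and 2 alone, a choice made after the data were seen, Slc6a4 passed (adjusted p = 0.0229 by edgeR) and Slc38a3 and Slc1a4 did not (0.158 and 0.241), with log2 fold changes of -0.68 and -0.47.

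**Figure D4:**
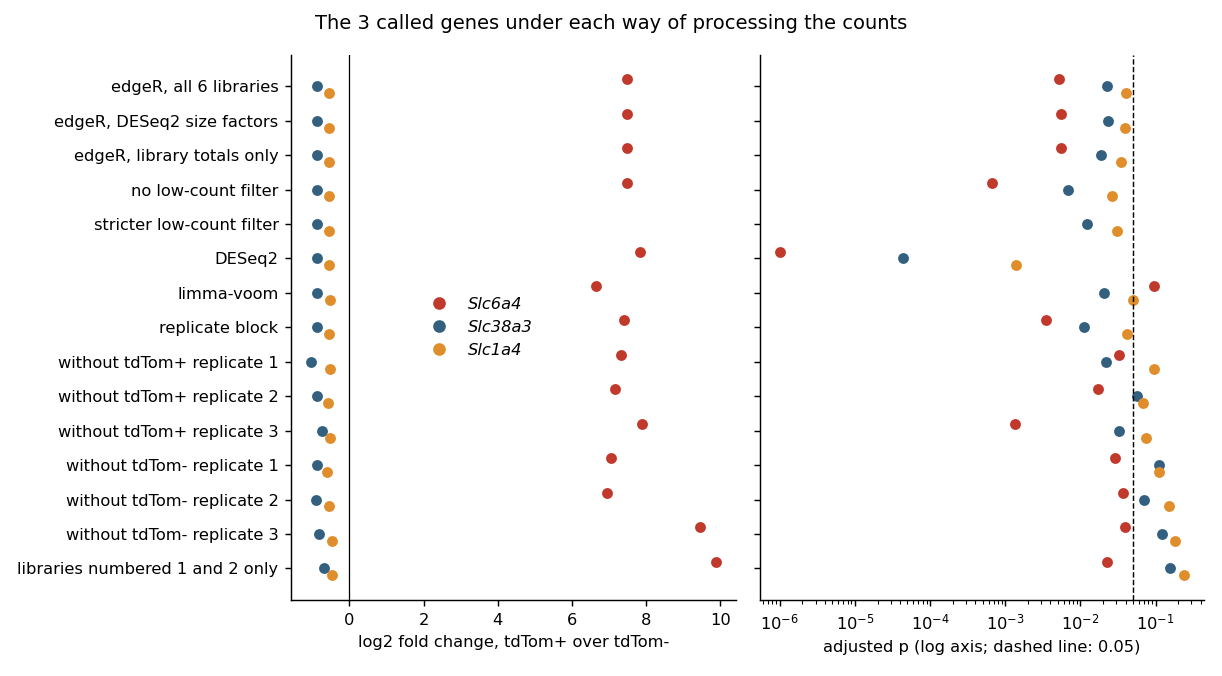
Log2 fold change (left) and adjusted p on a log axis (right, dashed line at 0.05) of the 3 called genes in the fit reported and in 14 alternatives. Slc6a4 passes the line in all but limma-voom and is not tested under the stricter filter, while Slc38a3 fails without 4 of the single libraries and Slc1a4 without each of the 6, and both fail with the libraries numbered 1 and 2 only.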

How the data were processed

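Per the labels' protocols, RNA of sorted cells was amplified with the SMART-seq v4 kit and made into Nextera XT libraries, which do not mark strand. Exons of 10 of the 34 tested members overlap another gene, and of 0 of the 3 called ones. Per the submitters' processing notes, the tools were featureCounts 1.4.6, STAR 2.5.2b, DESeq2, Trimmomatic 0.36.4 and Picard 2.7.1.1, given without roles, and the build was mm10. The authors deposited whole-number read counts per gene symbol, their log2 fold changes (tdTom- over tdTom+, turned round here) and p-values, and normalized values, a rounded score per the file headers, which were not used.

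All genes were fitted with edgeR 4.0.16 in R 4.3.3 (robust quasi-likelihood F-test, two-sided, TMM scaling, no block, genes kept by filterByExpr at 10 counts), after a test on simulated data. SEs were derived from the fold change and its F value. CPM use TMM-scaled depths. The floor of 3 counts was 0.254 to 0.336 CPM per library. No 2 libraries of the same group agreed within sampling noise (mean chi-square per gene 8.02 to 19.3). Alternatives used limma 3.58.1 and DESeq2 1.42.0, other scalings, filters and sets of libraries. Values by library are given for called members, the 8 smallest p-values, the 3 most abundant tested members of each role and members counted in 1 group only with 10 or more counts. Other members given with values were chosen after these were seen. The members and lists were chosen with earlier results of these data known. Promoter windows came from RefSeq. The values of 1 member are not reported here.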

Additional observations from a re-analysis of the deposited data

How the results depend on the processing

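The number of members higher in tdTom+ cells was 1 in every alternative other than limma-voom and the stricter filter, which gave 0, the latter because Slc6a4 was not tested. The number lower was 2 in all alternatives that kept the 6 libraries, 0 to 1 when a library was left out and 0 with the libraries numbered 1 and 2 only. Over all genes, 101 were higher and 107 lower; DESeq2 gave 211 and 291, the replicate block 128 and 167, leaving out a library 37 to 97 and 25 to 92, and the libraries numbered 1 and 2 only 27 and 16; fewer libraries were fitted in the latter cases, and other causes were not tested. With the replicate number as a block the same 3 members passed (Slc6a4, Slc38a3 and Slc1a4 at adjusted p = 0.00354, 0.0113 and 0.0415). Same-numbered libraries deviated together weakly (r = 0.11, 0.089 and 0.16 across genes), each correlating best with its own number, a hint from the data only. Some uncalled members changed sign. Without 1 library, the log2 fold change ran from -0.0031 to 0.40 for Slc1a5, -0.20 to 0.23 for Slc6a8, -0.63 to 2.36 for Slc7a14, -0.81 to 0.64 for Slc7a2, -0.20 to 0.13 for Slc7a8, -0.10 to 0.034 for Slc38a2, -0.12 to 0.0031 for Slc38a1 and -0.046 to 0.048 for Slc43a1. Slc7a2 was -1.38 with limma-voom and -0.60 with the block, Slc43a1 -0.0043 without scaling, and with the libraries numbered 1 and 2 only Slc6a8 was 0.16, Slc7a8 0.21 and Slc43a1 -0.047. For none of these was the cause tested. The tested members under 10 CPM had SEs of 0.352 to 1.37 in the main fit.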
